A study of Mus musculus with 16 samples.

Results

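The mouse collagen genes are the rows of the count table whose gene symbol is Col, a number, the letter a and a number, which is how the chains of collagens are named. The rule found 44 genes among 57186 gene IDs. By structure they are 11 fibrillar genes, 6 of the basement membrane (type IV), 2 multiplexins of the basement membrane zone, 9 FACITs, 6 of the beaded filament (type VI), 3 short-chain network genes, 1 anchoring fibril gene, 4 transmembrane genes and 2 others. Of the 44, 36 had enough counts to be tested. The other 8 (Col2a1, Col6a4, Col9a1, Col10a1, Col17a1, Col19a1, Col24a1 and Col25a1) held 3 to 90 counts each over all 16 libraries together, and no library held more than 15 counts of any of them.

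Collagens are trimers of chains wound round each other as a triple helix, and the helix needs a glycine at one place in each triplet of residues. Fibrillar collagens assemble into the cable-like fibres that give a tissue tensile strength, type IV forms the sheet under endothelium and around muscle cells, and FACITs (fibril-associated collagens with interrupted triple helices) sit on the surface of fibres. In the heart fibroblasts make most of the fibrillar collagen, endothelial and mural cells and cardiomyocytes are lined by type IV, and the interstitial fibres are known to accumulate under pressure overload.

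Left ventricle was sampled from 4 groups of 4 mice each, all of the strain C57/BL6N. The cKO TAC and cKO sham groups lacked Tfeb, the gene of a transcription factor of lysosomal genes, in cardiomyocytes only, and WT TAC and WT sham were the controls, called WT in the labels. TAC (transverse aortic constriction) narrows the aorta so that the left ventricle works against pressure, and sham is the operation without the narrowing. The labels give neither the Cre line, the age and sex nor the time after surgery, and they do not say whether the controls carried floxed Tfeb or Cre. The knockout is of cardiomyocytes, so the fibroblasts that make most fibrillar collagen kept the gene by design. Ventricular tissue was sequenced whole, so more cells of a type and more RNA per cell cannot be told apart.

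The 16 libraries held 12946878 to 16347388 counts. Levels are CPM (each library's counts scaled to the same total, with TMM factors), and where different genes are compared they are CPM per kilobase (kb) of the longest coding transcript. All cKO libraries held less Tfeb than the WT libraries with the same operation, at 14.7, 13.8, 13.0 and 9.37 CPM in cKO TAC, against 40.0, 34.6, 20.6 and 21.1 CPM in WT TAC, and 10.0, 9.12, 9.68 and 13.0 CPM in cKO sham, against 30.9, 37.4, 40.1 and 37.6 CPM in WT sham. The cardiomyocyte markers Myh6 and Tnnt2 were present in every library. A pair of WT libraries held the most transcripts of the atrium (Sln, Myl7, Myl4 and Bmp10 together). They were WT TAC replicate 4 at 797 CPM and WT sham replicate 3 at 2392 CPM. WT sham replicates 2 and 4 held 249 and 131 CPM, and every other library held 2.06 to 22.8 CPM. WT TAC replicate 4 also held 42.0 CPM of adipocyte markers, against 0.130 to 1.99 CPM in the other WT TAC libraries. WT sham replicate 3 held 13.4 CPM of these markers, against 0.918 to 3.51 CPM in the other WT sham libraries. Results that rest on these 2 libraries are given with and without them.

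The coding sequences set the fibrillar genes apart from the other classes, and a stretch of 4 of them is printed because these genes carry the results that follow. Glycine codons (GGN) repeating once per triplet of codons formed a longest block of 216 to 344 triplets in the 11 fibrillar genes, with at most 4 blocks per gene when blocks of 4 triplets or more are counted. In the 6 type IV genes the same repeat was broken into 22 to 27 blocks, the longest of 39 to 66 triplets. The longest block was 32 to 113 triplets in FACITs, 37 to 87 in the beaded filament genes, 60 to 61 in the short-chain genes and 30 in both multiplexins. Outside the fibrillar class these ranges partly overlapped. Col16a1, a FACIT, had 22 blocks, the longest of 52 triplets, which is within the ranges of the type IV genes. The stretches below are 63 bases of the coding strand, read 5′ to 3′ from the GENCODE M21 coding sequences (GRCm38), with each GGN codon of a repeat block in capitals. Col1a1 (chromosome 11) is shown at codons 168 to 188, the start of its longest block. Col4a1 (chromosome 8, codons 151 to 171), Col16a1 (chromosome 4, codons 1150 to 1170) and Col8a2 (chromosome 4, codons 480 to 500) are shown at the end of theirs.
Col1a1: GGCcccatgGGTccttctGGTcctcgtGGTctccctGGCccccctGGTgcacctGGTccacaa
Col4a1: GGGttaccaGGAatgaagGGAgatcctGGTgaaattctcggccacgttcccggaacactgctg
Col16a1: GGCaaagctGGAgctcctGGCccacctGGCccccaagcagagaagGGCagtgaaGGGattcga
Col8a2: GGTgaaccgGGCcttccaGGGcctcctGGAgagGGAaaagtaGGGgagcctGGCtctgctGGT
In Col1a1 the capitals run through the whole stretch, while in Col4a1 they stop after 4 codons. In Col16a1 they resume after a break, and in Col8a2 they resume out of step with the block before.

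Promoter windows (250 bases before to 50 after the annotated start, RefSeq, GRCm38.p6) were at hand for 35 of the 44 genes, in 38 windows of 300 bases. Col4a1 and Col4a2 lie head to head on opposite strands with annotated starts 21 bases apart. By these starts the genes overlap at their first bases, with no gap between them, and their windows share 78 identical bases of genome. Both are printed because these genes moved together, and that of Col16a1 because it was the collagen gene past the threshold between genotypes. Capitals mark CCAAT or GGGCGG on either strand. The Col4a1 window is chr8:11312777-11313076 on the minus strand, that of Col4a2 is chr8:11312555-11312854 on the plus strand and that of Col16a1 is chr4:130047590-130047889 on the plus strand.
Col4a1: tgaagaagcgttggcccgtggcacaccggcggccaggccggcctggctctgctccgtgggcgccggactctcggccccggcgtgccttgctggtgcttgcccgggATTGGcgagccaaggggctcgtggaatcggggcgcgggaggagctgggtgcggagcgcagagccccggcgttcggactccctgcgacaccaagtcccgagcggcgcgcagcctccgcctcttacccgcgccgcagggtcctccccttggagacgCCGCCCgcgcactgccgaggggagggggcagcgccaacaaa
Col4a2: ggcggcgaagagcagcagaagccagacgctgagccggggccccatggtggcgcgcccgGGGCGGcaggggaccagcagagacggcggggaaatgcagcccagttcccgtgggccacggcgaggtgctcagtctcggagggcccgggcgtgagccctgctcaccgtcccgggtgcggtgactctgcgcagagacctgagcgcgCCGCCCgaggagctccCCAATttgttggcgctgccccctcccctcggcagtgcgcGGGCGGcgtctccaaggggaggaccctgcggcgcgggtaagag
Col16a1: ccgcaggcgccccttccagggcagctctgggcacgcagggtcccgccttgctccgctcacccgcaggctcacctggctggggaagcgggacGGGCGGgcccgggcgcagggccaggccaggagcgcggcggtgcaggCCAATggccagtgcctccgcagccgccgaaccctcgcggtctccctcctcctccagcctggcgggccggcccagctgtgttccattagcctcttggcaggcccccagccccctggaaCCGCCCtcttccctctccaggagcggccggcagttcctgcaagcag
CCAAT was found in 13 of the 38 collagen windows (37.4% of 32851 windows of all genes hold it), and GGGCGG in 23 of 38 (35.7% of all windows). TATAAA was found in 5 of 38 (13.6% of all windows). CACGTG was in 0 of the 38 windows and in 7.15% of all windows. Motifs were searched on both strands, and a match describes the letters alone.

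After TAC collagen transcripts were higher in both genotypes, and the classes differed in how far. In cKO TAC against cKO sham 26 of the 36 tested collagen genes rose and 0 fell, where 14.2% of all 15206 tested genes rose and 12.4% fell (edgeR quasi-likelihood test, Benjamini-Hochberg adjusted p under 0.05). In WT TAC against WT sham 24 of 36 rose and 0 fell, where 9.7% of all tested genes rose and 6.14% fell. By an unadjusted p under 0.05, 27 collagen genes were higher and 2 lower (Col11a2 and Col20a1) in cKO TAC, and 26 were higher and 0 lower in WT TAC, where 38.3% and 31.3% of all tested genes had such a p in either direction. The median log2 fold change over the 36 was 1.44 in cKO (all genes 0.00) and 1.29 in WT (all genes -0.01). The 24 that rose in WT were all among the 26 of cKO, which added Col4a5 and Col5a3. Both comparisons use separate libraries. All 4 TAC libraries lay above all 4 sham libraries for 27 of 36 in cKO (15.5% of all tested genes) and 23 of 36 in WT (11%), and below them for 2 in cKO (13.8%) and 0 in WT (8.44%). Of the 36, 32 also passed the count minimum in the sham libraries alone, and Col6a5, Col9a3, Col11a1 and Col26a1 passed it through TAC libraries.

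Class medians of the log2 fold change were highest for the short-chain pair (3.73 in cKO and 2.54 in WT), then the fibrillar genes (2.23 and 1.91), the 2 others, Col26a1 and Col28a1 (2.06 and 1.76), and FACITs (2.02 and 1.51). Multiplexins stood at 1.37 and 1.50, the beaded filament genes at 1.38 and 1.28, type IV at 1.00 and 0.83, and the transmembrane pair at 0.11 and -0.33. Counts that rose in cKO and in WT were 8 and 7 of 9 fibrillar genes, 5 and 4 of 6 type IV genes, and 5 and 5 of 7 FACITs. Both multiplexins, 3 of 5 beaded filament genes, both short-chain genes and 1 of 2 others rose in each genotype, while neither of 2 transmembrane genes nor Col7a1 passed. The median of the 2 others rests on Col26a1, which passed the count minimum only through TAC libraries. Col28a1 alone stood at 0.84 in cKO and 0.58 in WT. The fibrillar, FACIT and beaded filament medians each include 1 such gene (Col11a1, Col9a3 and Col6a5). In cKO the beaded filament median of 1.38 is the value of Col6a5 itself, which did not pass (SE 1.03, adjusted p = 0.356). These class medians are descriptions with no test between classes.

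**Figure D1:**
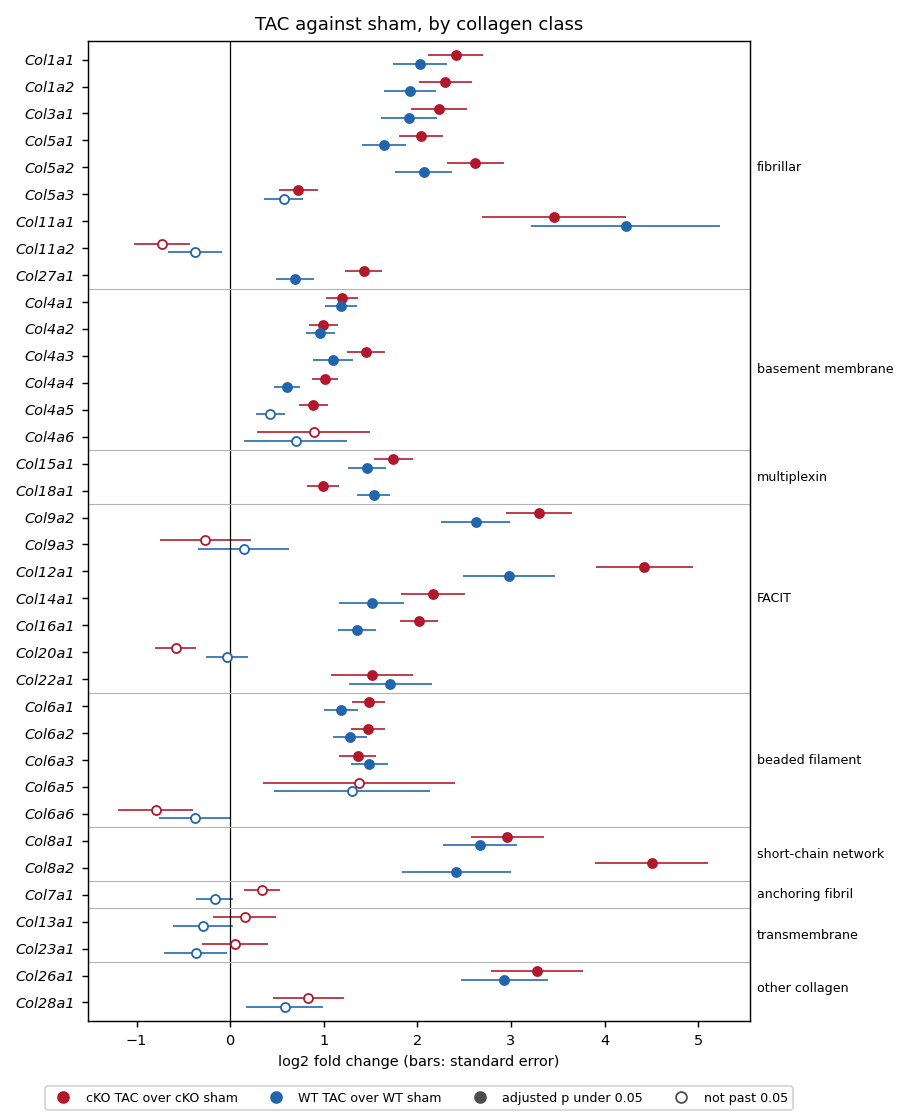
Log2 fold changes of TAC over sham for the 36 tested collagen genes, ordered by class; cKO in red and WT in blue, bars give the standard error, and filled points passed an adjusted p of 0.05. Type IV genes sit near 1 or lower in WT, fibrillar genes mostly near 2, and Col8a2 and Col12a1 lie farther right in cKO than in WT.

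Type I collagen, a trimer of Col1a1 and Col1a2 chains, is the main fibre of scar and interstitium. Col1a1 (ENSMUSG00000001506, chromosome 11) held 1512, 1075, 699.7 and 1299 CPM in cKO TAC, against 154, 328, 184 and 197 CPM in cKO sham (log2 fold change 2.41, SE 0.29, adjusted p = 7.13e-05). WT libraries held 872, 493, 439 and 609.5 CPM in WT TAC, against 134, 139, 194 and 123 CPM in WT sham (2.03, SE 0.29, adjusted p = 0.000367). Every TAC library was above every sham library of its genotype. Col1a2 followed it, with 1541, 1013, 664 and 1219 CPM in cKO TAC, against 168, 347, 169.6 and 217 CPM in cKO sham (log2 2.30, adjusted p = 8.88e-05), and 765, 467, 463 and 651 CPM in WT TAC, against 127, 157, 197 and 139.7 CPM in WT sham (log2 1.92, adjusted p = 0.000491). The ratio of Col1a1 to Col1a2 (both per kb) stayed between 0.792 and 1.03 in all 16 libraries, so the pair kept its proportion while its level changed.

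Col3a1, whose chains form the thinner type III fibres laid down with type I, held 2661, 1804, 1224 and 1855 CPM in cKO TAC, against 260.4, 684, 309.8 and 349.7 CPM in cKO sham (log2 2.23, SE 0.30, adjusted p = 0.000153). The WT values were 1216, 811, 768 and 978 CPM in WT TAC, against 214, 223, 332 and 233 CPM in WT sham (log2 1.91, SE 0.30, adjusted p = 0.000695). Groups did not overlap within a genotype, and WT sham replicate 3, the library with the most atrial transcripts, was the highest of its group. Per kb Col3a1 averaged 339 in cKO TAC, 72.1 in cKO sham, 169.5 in WT TAC and 45.0 in WT sham. It was the highest collagen gene per kb in all 4 cKO TAC libraries and in WT TAC replicate 4, where the other 3 WT TAC libraries and 7 of the 8 sham libraries had Col4a1 on top and WT sham replicate 1 had Col4a2. The ratio of Col3a1 to Col4a1 was 1.61, 1.17, 1.04 and 1.31 in cKO TAC, against 0.805, 0.742, 0.732 and 1.08 in WT TAC, and 0.485, 0.851, 0.477 and 0.656 in cKO sham, against 0.543, 0.451, 0.537 and 0.467 in WT sham. WT TAC replicate 4 is the library that overlapped cKO TAC in this ratio.

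Type V collagen starts fibrils and limits their width, and its chains did not keep one proportion. Col5a2, the neighbour of Col3a1 on chromosome 1 with no protein-coding gene between, held 477, 307, 185 and 296 CPM in cKO TAC, against 41.4, 79.7, 43.7 and 41.2 CPM in cKO sham (log2 2.62, SE 0.31, adjusted p = 7.1e-05). In WT it held 202, 119, 131 and 154 CPM in WT TAC, against 27.7, 34.5, 49.7 and 32.9 CPM in WT sham (log2 2.07, SE 0.30, adjusted p = 0.000575). Col5a1 had smaller fold changes, 2.04 in cKO (adjusted p = 4.97e-05) and 1.65 in WT (adjusted p = 0.000355). The ratio of Col5a1 to Col5a2 per kb was therefore lower in every TAC library: 0.782 to 1.05 in cKO TAC, against 1.24 to 1.54 in cKO sham, and 1.01 to 1.17 in WT TAC, against 1.22 to 1.75 in WT sham. Col5a3, a less common chain, rose in cKO (log2 0.73, SE 0.21, adjusted p = 0.0183) and stood at 0.57, SE 0.21, adjusted p = 0.075 in WT. Its libraries held 75.2 to 81.1 CPM in cKO TAC, against 32.1 to 71.2 CPM in cKO sham with replicate 3 highest. The WT libraries held 65.0 to 96.3 CPM in WT TAC, against 43.1 to 60.6 CPM in WT sham, with no overlap. The cKO call was lost without cKO sham replicate 1 (adjusted p = 0.0541) or replicate 4 (0.0538), and with no count filter (0.0719). In WT Col5a3 passed by the DESeq2 Wald test (adjusted p = 0.0427) and with the WT groups fitted alone (0.0265). It also passed there with library totals (0.0322) and without cKO sham replicate 3 (0.023). The difference in TAC response was 0.16, SE 0.30, adjusted p = 0.981.

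The remaining fibrillar genes are best known from cartilage. Col11a1 was nearly absent after sham, at 5.42, 0.884, 1 and 8.04 CPM in cKO TAC, against 0.456, 0.129, 0.372 and 0.415 CPM in cKO sham, and 3.12, 0.993, 0.907 and 2.57 CPM in WT TAC, against 0, 0.149, 0.222 and 0 CPM in WT sham. A pair of WT sham libraries held 0 counts, so its fitted fold changes (log2 3.46, SE 0.77, adjusted p = 0.00398 in cKO and 4.22, SE 1.01, adjusted p = 0.011 in WT) depend on the few sham counts. Col27a1 held 20.4 ± 4.51 CPM in cKO TAC and 7.59 ± 1.95 CPM in cKO sham (SD, n = 4 each; log2 1.43, SE 0.20, adjusted p = 0.000118), and 14.0 ± 3.13 CPM in WT TAC and 8.64 ± 1.46 CPM in WT sham (log2 0.69, SE 0.20, adjusted p = 0.0259). Its WT call was lost without WT TAC replicate 1 (adjusted p = 0.108), without WT TAC replicate 2 (0.0590), without WT sham replicate 3 (0.0563) or replicate 4 (0.0797). It was also lost without both libraries with the most atrial transcripts (0.0809). Col11a2, the partner of Col11a1 in type XI collagen, did not follow it: it held 3.47, 4.04, 3.63 and 4.29 CPM in cKO TAC, against 7.24, 6.73, 5.51 and 6.02 CPM in cKO sham (log2 -0.72, SE 0.30, adjusted p = 0.0813). All cKO TAC libraries were below all cKO sham libraries. Col11a2 passed as lower in cKO when both WT libraries with the most atrial transcripts were left out of the shared fit (adjusted p = 0.0233). WT libraries held 3.65, 3.97, 5.05 and 10.1 CPM in WT TAC, against 5.05, 10.4, 9.46 and 4.87 CPM in WT sham (log2 -0.38, SE 0.29, adjusted p = 0.404), and without WT TAC replicate 4 it fell in WT by 0.82 (adjusted p = 0.0358).

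**Figure D2:**
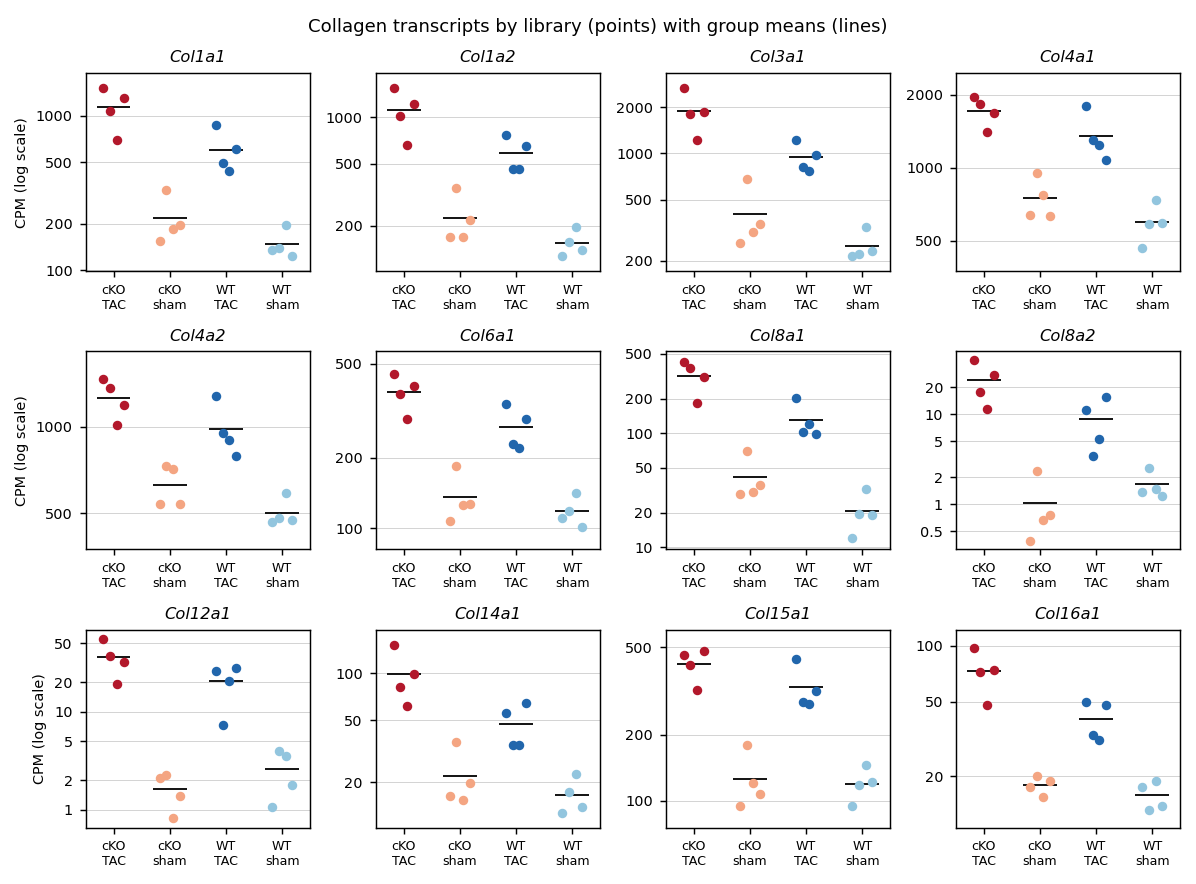
CPM of 12 collagen genes in each library (points; log axis) with the group mean as a line, in the order cKO TAC, cKO sham, WT TAC and WT sham. Each TAC group lies above its sham group in every panel, by a small factor for Col4a1 and Col4a2 and by a large one for Col8a2 and Col12a1.

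Type IV collagen of Col4a1 and Col4a2 is the common sheet under endothelium and around cardiomyocytes. Col4a1 (ENSMUSG00000031502, chromosome 8) held 1965, 1832, 1400.1 and 1677 CPM in cKO TAC, against 638, 955, 773 and 634 CPM in cKO sham (log2 1.20, SE 0.17, adjusted p = 0.000147). The WT values were 1796, 1301, 1247 and 1077 CPM in WT TAC, against 469, 588, 734 and 593 CPM in WT sham (log2 1.18, SE 0.17, adjusted p = 0.000242). The groups did not overlap in either genotype. Col4a2, whose promoter window is printed beside that of Col4a1 above, rose by 1.00 in cKO (adjusted p = 0.000224) and by 0.96 in WT (adjusted p = 0.000506). Its libraries held 1459, 1361, 1013 and 1184 CPM in cKO TAC, against 536, 730.1, 713 and 537 CPM in cKO sham, and 1276, 948, 897 and 792 CPM in WT TAC, against 467, 480.3, 587 and 474 CPM in WT sham. The ratio of Col4a1 to Col4a2 per kb was higher in each TAC library than in each sham library of the same genotype, at 1.31 to 1.38 in cKO TAC, against 1.06 to 1.28 in cKO sham, and 1.33 to 1.37 in WT TAC, against 0.978 to 1.22 in WT sham. No test was run on these ratios.

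The minor type IV chains, known for the kidney filter (Col4a3, Col4a4 and Col4a5) and for smooth muscle (Col4a5 with Col4a6), were far lower. Col4a5 per kb reached 0.0439 to 0.0485 of Col4a1 in cKO TAC, 0.0463 to 0.0687 in cKO sham, 0.035 to 0.0587 in WT TAC and 0.056 to 0.0809 in WT sham. Col4a3 held 10.8, 9.85, 9.63 and 8.46 CPM in cKO TAC, against 3.26, 4.01, 2.83 and 4.01 CPM in cKO sham (log2 1.45, SE 0.21, adjusted p = 0.000118), and 6.44, 6.34, 6.22 and 7.23 CPM in WT TAC, against 1.76, 4.4, 3.62 and 2.47 CPM in WT sham (log2 1.09, SE 0.21, adjusted p = 0.00228). Col4a4, its head-to-head neighbour on chromosome 1, changed less, by 1.01 in cKO (adjusted p = 9.26e-05) and 0.61 in WT (adjusted p = 0.00731). Col4a5 on the X chromosome held 87.1, 79.5, 61.2 and 80.4 CPM in cKO TAC, against 40.6, 43.7, 38.9 and 43.0 CPM in cKO sham (log2 0.89, SE 0.16, adjusted p = 0.000706), and 62.1, 48.6, 53.1 and 62.5 CPM in WT TAC, against 25.9, 44.8, 49.8 and 47.4 CPM in WT sham (log2 0.43, SE 0.16, adjusted p = 0.0715). WT sham replicate 1 was the lowest WT library, and WT TAC replicate 2 lay within the other WT sham values. Without WT sham replicate 3 the adjusted p in WT was 0.0428.

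Col15a1 and Col18a1 are multiplexins, which link the basement membrane to the tissue around it, and Col18a1 is the source of the fragment endostatin. Col15a1 held 460.2, 416, 320.0 and 482 CPM in cKO TAC, against 94.4, 180.2, 120.1 and 107 CPM in cKO sham (log2 1.74, SE 0.21, adjusted p = 4.85e-05), and 444, 280.4, 275 and 316 CPM in WT TAC, against 94.0, 117, 145 and 122 CPM in WT sham (log2 1.46, SE 0.21, adjusted p = 0.000242). Col18a1 held 54.1, 43.3, 31.6 and 43.8 CPM in cKO TAC, against 24.7, 21.3, 20.0 and 20.8 CPM in cKO sham (log2 0.99, SE 0.17, adjusted p = 0.000589), and 42.2, 59.7, 40.7 and 60.6 CPM in WT TAC, against 16.6, 15.4, 22.9 and 15.2 CPM in WT sham (log2 1.54, SE 0.18, adjusted p = 3.32e-05). Col18a1 had the larger fold in WT, where WT TAC replicates 2 and 4 were the highest of all 16 libraries, and Col15a1 had the larger fold in cKO. The difference in TAC response for Col18a1 was -0.54, SE 0.24, adjusted p = 0.946.

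Among FACITs the steepest change was that of Col12a1, which coats fibres in tendon and other loaded tissue. It held 55.1, 37.0, 19.2 and 32.0 CPM in cKO TAC, against 2.09, 2.26, 0.819 and 1.38 CPM in cKO sham (log2 4.43, SE 0.52, adjusted p = 8.66e-05). In WT it held 26.2, 7.26, 20.7 and 27.9 CPM in WT TAC, against 1.07, 3.96, 3.55 and 1.78 CPM in WT sham (log2 2.98, SE 0.49, adjusted p = 0.00148), with WT TAC replicate 2 well below its group. Col14a1, a FACIT of the same kind, was more abundant in sham and rose less, with 153, 82.2, 61.8 and 99.2 CPM in cKO TAC, against 16.3, 36.4, 15.5 and 19.9 CPM in cKO sham (log2 2.17, SE 0.34, adjusted p = 0.000639), and 55.3, 34.7, 34.5 and 64.5 CPM in WT TAC, against 12.8, 17.2, 22.5 and 13.9 CPM in WT sham (log2 1.51, SE 0.35, adjusted p = 0.0107). The ratio of Col12a1 to Col14a1 per kb averaged 0.202 ± 0.0355 in cKO TAC, 0.0438 ± 0.019 in cKO sham, 0.24 ± 0.0914 in WT TAC and 0.084 ± 0.0343 in WT sham (SD, n = 4 each). It was higher in every cKO TAC than cKO sham library, and overlapped between WT TAC and WT sham through WT TAC replicate 2.

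Col16a1, a FACIT found near smooth muscle and in fibroblast matrix, held 97.4, 72.6, 48.1 and 73.8 CPM in cKO TAC, against 17.5, 20.0, 15.6 and 18.9 CPM in cKO sham (log2 2.02, SE 0.20, adjusted p = 1.05e-05). WT libraries held 49.7, 33.3, 31.5 and 48.1 CPM in WT TAC, against 17.6, 13.3, 18.9 and 13.8 CPM in WT sham (log2 1.35, SE 0.20, adjusted p = 0.000357). TAC and sham libraries did not overlap in either genotype. Col9a2, a chain of the type IX collagen of cartilage, held 8.7, 5.49, 4.31 and 8.77 CPM in cKO TAC, against 0.522, 0.388, 0.819 and 1.04 CPM in cKO sham (log2 3.30, SE 0.35, adjusted p = 1.44e-05), and 7.04, 3.9, 2.91 and 3.09 CPM in WT TAC, against 0.535, 0.746, 0.665 and 0.773 CPM in WT sham (log2 2.62, SE 0.37, adjusted p = 0.000147). Its partner chains did not accompany it: Col9a3 stayed at 0.188 to 0.968 CPM over all libraries, with log2 fold changes of -0.27 in cKO and 0.14 in WT (adjusted p = 0.731 and 0.873), and Col9a1 held 7 counts in all. Col22a1, known from the junction of muscle and tendon, rose by 1.51 in cKO (adjusted p = 0.0168) and 1.71 in WT (adjusted p = 0.0163). That WT call was lost without WT TAC replicate 4 (log2 1.25, adjusted p = 0.0525) and the cKO call without cKO TAC replicate 4 (1.22, adjusted p = 0.0593) or cKO sham replicate 3 (1.28, adjusted p = 0.0539). Without both libraries with the most atrial transcripts it stood at 1.42 in WT (adjusted p = 0.0519). With no count filter both calls were lost (adjusted p = 0.0575 in WT and 0.0649 in cKO). Col20a1 held 2.71, 3.03, 2.94 and 2.72 CPM in cKO TAC, against 4.76, 4.14, 4.39 and 3.8 CPM in cKO sham (log2 -0.58, SE 0.22, adjusted p = 0.0555) with no overlap, and 3.12, 2.67, 2.33 and 3.67 CPM in WT TAC, against 3.44, 4.33, 2.14 and 2.17 CPM in WT sham (log2 -0.03, SE 0.22, adjusted p = 0.945). It passed as lower in cKO in the DESeq2 Wald test (log2 -0.60, adjusted p = 0.0352) and without both WT libraries with the most atrial transcripts (-0.58, adjusted p = 0.0398).

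Type VI collagen makes beaded microfilaments that tie cells and basement membrane to fibres, and its standard trimer is of Col6a1, Col6a2 and Col6a3. Col6a1 held 452, 372, 293 and 401 CPM in cKO TAC, against 108, 184, 126 and 127 CPM in cKO sham (log2 1.48, SE 0.18, adjusted p = 4.37e-05), and 337, 228, 219 and 291 CPM in WT TAC, against 111, 118, 142 and 102 CPM in WT sham (log2 1.18, SE 0.18, adjusted p = 0.000346). Col6a2 rose by 1.47 and 1.28 and Col6a3 by 1.36 and 1.49 in cKO and in WT, with adjusted p from 5.14e-05 to 0.000239. Col6a3 was at 116 to 192 CPM in cKO TAC, 42.4 to 85.2 CPM in cKO sham, 94.0 to 149.9 CPM in WT TAC and 36.6 to 44.2 CPM in WT sham, with no overlap within a genotype. The ratio of Col6a1 to Col6a2 per kb stayed between 0.816 and 1.02 in all 16 libraries.

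Col6a5 and Col6a6 are alternative type VI chains, which can take the place of Col6a3, and neither passed in either genotype. Col6a6 held 3.78, 1.77, 5.31 and 2.96 CPM in cKO TAC, against 7.3, 4.98, 4.62 and 7.12 CPM in cKO sham (log2 -0.80, SE 0.40, adjusted p = 0.16). The WT values were 3.32, 6.04, 5.18 and 15.2 CPM in WT TAC, against 10.6, 11.5, 7.54 and 9.36 CPM in WT sham (log2 -0.38, SE 0.38, adjusted p = 0.534), and WT TAC replicate 4 stood above all other libraries. Without that library Col6a6 fell by 1.01 in WT (adjusted p = 0.0276) and by 0.81 in cKO (adjusted p = 0.0377). Col6a5 held 1.7, 0.947, 0.313 and 0.484 CPM in cKO TAC, against 0.391, 0.0647, 0.521 and 0.346 CPM in cKO sham (log2 1.38, SE 1.03, adjusted p = 0.356). The WT libraries held 0.598, 0.764, 0.453 and 7.11 CPM in WT TAC, against 0.841, 1.12, 1.55 and 0.155 CPM in WT sham (log2 1.30, SE 0.83, adjusted p = 0.307), again with WT TAC replicate 4 far above the rest. Without that library the WT value of Col6a5 was -0.61 (adjusted p = 0.559). Col4a6 showed the same library, at 2.71, 2.65, 1.63 and 2.24 CPM in cKO TAC, against 1.24, 1.42, 0.968 and 1.31 CPM in cKO sham, and 2.13, 2.37, 1.3 and 10.7 CPM in WT TAC, against 1.22, 2.09, 5.17 and 1.78 CPM in WT sham. Its 2 highest values are those of WT TAC replicate 4 and WT sham replicate 3. These are the libraries with the most atrial transcripts, whose part in the result was not tested. The WT value of Col4a6 was 0.70, SE 0.55, adjusted p = 0.415, and it was -0.42 (adjusted p = 0.506) without WT TAC replicate 4. In cKO the Col4a6 libraries did not overlap (log2 0.89, SE 0.60, adjusted p = 0.302), and without those 2 WT libraries the adjusted p was 0.0227.

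**Figure D3:**
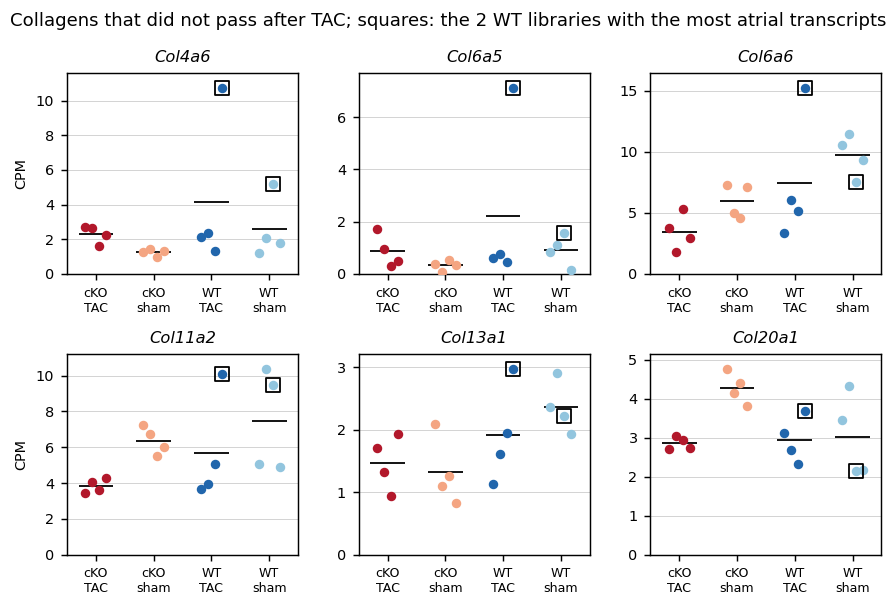
CPM of 6 of the 10 tested collagen genes that passed after TAC in neither genotype, by library (points) with group means (lines). Axes start at 0. Squares mark WT TAC replicate 4 and WT sham replicate 3, and WT TAC replicate 4 is the highest of its group in all 6 panels. Of the genes not shown, Col7a1 and Col9a3 were highest in WT TAC replicate 2.

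Type VIII collagen, the short-chain network under vascular endothelium and in the cornea, rose most as a class. Col8a1 held 418, 374, 183 and 309.8 CPM in cKO TAC, against 29.5, 69.9, 30.4 and 35.3 CPM in cKO sham (log2 2.96, SE 0.39, adjusted p = 0.000195). In WT it held 206, 102, 121 and 99.4 CPM in WT TAC, against 11.9, 19.6, 32.1 and 19.3 CPM in WT sham (log2 2.67, SE 0.39, adjusted p = 0.000686). Col8a2 held 39.9, 17.8, 11.3 and 27.0 CPM in cKO TAC, against 0.391, 2.33, 0.67 and 0.761 CPM in cKO sham (log2 4.50, SE 0.61, adjusted p = 0.000205), and 11.0, 3.44, 5.25 and 15.6 CPM in WT TAC, against 1.38, 2.54, 1.48 and 1.24 CPM in WT sham (log2 2.42, SE 0.58, adjusted p = 0.0137). No TAC library overlapped a sham library for either gene, but WT TAC spread widely for Col8a2 and its highest value is in replicate 4. Without the 2 libraries with the most atrial transcripts the WT fold of Col8a2 was 1.93 (adjusted p = 0.0682), and the part of those transcripts was not tested. Col8a2 was a small share of Col8a1, with a ratio per kb of 0.0562 to 0.113 in cKO TAC, 0.0157 to 0.0393 in cKO sham, 0.0397 to 0.185 in WT TAC and 0.0542 to 0.153 in WT sham.

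Among the rest, Col26a1, described from testis and ovary, rose from few counts: 2.96, 1.96, 1.13 and 2.84 CPM in cKO TAC, against 0.391, 0.0647, 0.223 and 0.208 CPM in cKO sham (log2 3.28, SE 0.50, adjusted p = 0.000193), and 4.45, 2.37, 2.07 and 1.75 CPM in WT TAC, against 0.382, 0.224, 0.148 and 0.619 CPM in WT sham (log2 2.93, SE 0.47, adjusted p = 0.000497). Its TAC and sham libraries did not overlap. Col28a1, known around Schwann cells of nerves, held 3.15, 2.34, 1.5 and 1.81 CPM in cKO TAC, against 1.56, 0.712, 1.12 and 1.52 CPM in cKO sham (log2 0.84, SE 0.38, adjusted p = 0.108), and 1.33, 0.611, 0.907 and 2.27 CPM in WT TAC, against 0.765, 1.27, 0.961 and 0.464 CPM in WT sham (log2 0.58, SE 0.41, adjusted p = 0.358). The summed level of the Schwann cell markers was 10.4 to 17.7 CPM in cKO TAC, 17.7 to 26.7 CPM in cKO sham, 9.1 to 34.4 CPM in WT TAC and 21.0 to 32.7 CPM in WT sham, and 1 of their 7 tested genes fell after TAC in each genotype.

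Col7a1, which anchors skin to its basement membrane, held 4.29, 3.79, 2.63 and 4.41 CPM in cKO TAC, against 3.33, 3.04, 2.75 and 2.84 CPM in cKO sham (log2 0.34, SE 0.19, adjusted p = 0.21), and 2.59, 2.75, 2.53 and 2.57 CPM in WT TAC, against 3.44, 2.76, 3.25 and 2.24 CPM in WT sham (log2 -0.17, SE 0.20, adjusted p = 0.609). Groups overlapped in both genotypes. Col13a1, a transmembrane collagen of the neuromuscular junction, held 1.7, 1.33, 0.938 and 1.93 CPM in cKO TAC, against 2.09, 1.1, 1.27 and 0.83 CPM in cKO sham (log2 0.16, SE 0.34, adjusted p = 0.779), and 1.13, 1.6, 1.94 and 2.97 CPM in WT TAC, against 2.37, 2.91, 2.22 and 1.93 CPM in WT sham (log2 -0.29, SE 0.32, adjusted p = 0.57). Col23a1, another transmembrane collagen, held 2.52, 1.71, 1.81 and 1.33 CPM in cKO TAC, against 2.41, 0.971, 1.56 and 2.14 CPM in cKO sham (log2 0.05, SE 0.35, adjusted p = 0.931), and 0.864, 2.6, 2.07 and 3.79 CPM in WT TAC, against 2.98, 3.06, 3.03 and 3.02 CPM in WT sham (log2 -0.37, SE 0.34, adjusted p = 0.489). At these counts smaller changes would not have been detectable.

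Because the classes changed by different factors, the make-up of the collagen transcripts shifted. All collagens together took 1.45, 1.08, 0.723 and 1.13% of counts in cKO TAC, against 0.232, 0.411, 0.269 and 0.261% in cKO sham, and 0.885, 0.569, 0.524 and 0.631% in WT TAC, against 0.187, 0.214, 0.29 and 0.207% in WT sham. Fibrillar genes made up 48.6 ± 3.97% of the summed collagen CPM per kb in cKO TAC, 33.7 ± 4.44% in cKO sham, 40.7 ± 2.85% in WT TAC and 30.4 ± 1.21% in WT sham (SD, n = 4 each). Type IV made up 27.8 ± 3.19% in cKO TAC, 42.8 ± 4.6% in cKO sham, 34.0 ± 3.76% in WT TAC and 43.6 ± 1.53% in WT sham. Fibrillar and type IV shares did not overlap between TAC and sham within a genotype. Between cKO TAC and WT TAC the fibrillar share overlapped by 1 library each, cKO TAC replicate 3 at 44.2% and WT TAC replicate 4 at 44.4%. The short-chain share was 3.91 ± 0.564% in cKO TAC, 1.55 ± 0.317% in cKO sham, 2.52 ± 0.395% in WT TAC and 1.08 ± 0.243% in WT sham, and cKO TAC and WT TAC did not overlap. FACITs stayed at 1.42 to 2.39% in all libraries. These shares are descriptions with no test.

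**Figure D4:**
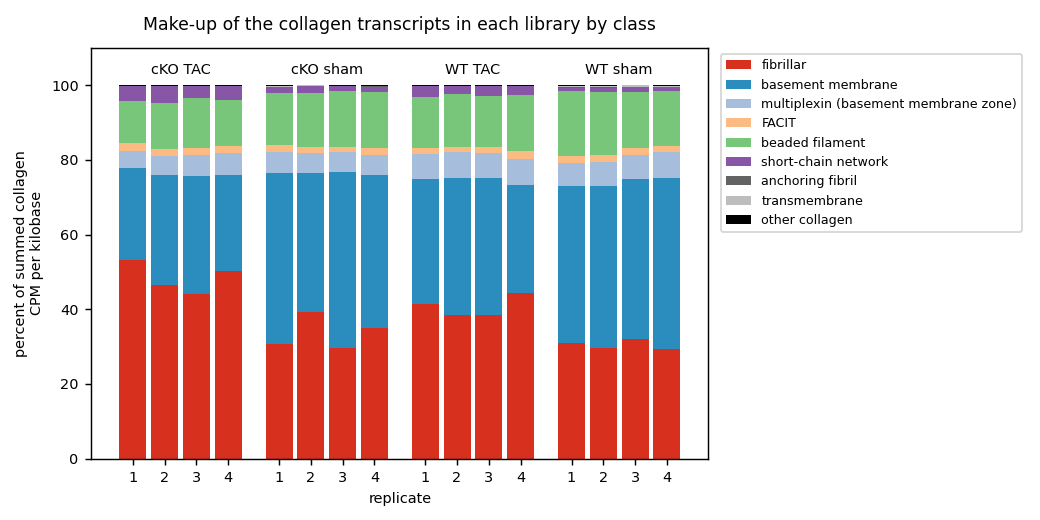
Share of each collagen class in the summed collagen CPM per kilobase of each library, in percent, with replicates 1 to 4 of cKO TAC, cKO sham, WT TAC and WT sham from left to right. The fibrillar share is larger and the type IV share smaller in TAC than in sham libraries of the same genotype.

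Between genotypes under TAC most collagen genes were higher in cKO, but only Col16a1 passed. In cKO TAC against WT TAC 1 of 36 rose and 0 fell, where 0.598% of all tested genes rose and 1.18% fell. The median log2 fold change was 0.44, against 0.00 for all genes, and 25 of 36 were positive. By an unadjusted p under 0.05, 18 collagen genes were higher and 1 (Col6a6) was lower, 19 of 36 in all, where 17.4% of all tested genes had such a p in either direction. The Col6a6 value of -1.11 (adjusted p = 0.156) was -0.49 (adjusted p = 0.449) without WT TAC replicate 4. The DESeq2 Wald test passed 8 of 36, namely Col16a1, Col1a1, Col1a2, Col3a1, Col5a1, Col5a2, Col8a1 and Col14a1. The count depended on single libraries: 9 passed without cKO TAC replicate 3, 6 without WT TAC replicate 1, 4 without cKO sham replicate 2 and 2 without WT sham replicate 1. It was 0 without cKO TAC replicate 1, 2 or 4, WT TAC replicate 2 or 3, or cKO sham replicate 4, and 0 with no count filter or in a fit of both TAC groups alone.

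Col16a1 (ENSMUSG00000040690, chromosome 4) held 97.4, 72.6, 48.1 and 73.8 CPM in cKO TAC, against 49.7, 33.3, 31.5 and 48.1 CPM in WT TAC (log2 0.84, SE 0.19, adjusted p = 0.0347). The groups met at cKO TAC replicate 3, which lay below WT TAC replicate 1 and beside replicate 4. With 1 library left out its log2 ranged down to 0.66 (without cKO TAC replicate 1, adjusted p = 0.132), and the highest adjusted p was 0.141, without WT TAC replicate 2. Col3a1 held 2661, 1804, 1224 and 1855 CPM in cKO TAC, against 1216, 811, 768 and 978 CPM in WT TAC (log2 1.00, SE 0.29, adjusted p = 0.0859), with cKO TAC replicate 3 and WT TAC replicate 1 nearly level. Col5a2 stood at 1.06, SE 0.29, adjusted p = 0.0741, Col1a1 at 0.93, SE 0.28, adjusted p = 0.0943 and Col1a2 at 0.92, SE 0.27, adjusted p = 0.0922. Col8a1 held 418, 374, 183 and 309.8 CPM in cKO TAC, against 206, 102, 121 and 99.4 CPM in WT TAC (log2 1.28, SE 0.37, adjusted p = 0.087), and Col8a2 held 39.9, 17.8, 11.3 and 27.0 CPM in cKO TAC, against 11.0, 3.44, 5.25 and 15.6 CPM in WT TAC (log2 1.43, SE 0.48, adjusted p = 0.136). Col4a1 held 1965, 1832, 1400.1 and 1677 CPM in cKO TAC, against 1796, 1301, 1247 and 1077 CPM in WT TAC (log2 0.34, SE 0.17, adjusted p = 0.313).

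No overlap between cKO TAC and WT TAC was seen for 3 genes, all higher in cKO TAC: Col3a1, Col4a3 and Col4a4 (4.89% of all tested genes separated upwards and 5.11% downwards). Col4a3 held 10.8, 9.85, 9.63 and 8.46 CPM in cKO TAC, against 6.44, 6.34, 6.22 and 7.23 CPM in WT TAC (log2 0.56, SE 0.20, adjusted p = 0.139) and Col4a4 held 22.4, 20.3, 20.9 and 20.6 CPM in cKO TAC, against 17.0, 13.4, 15.8 and 19.8 CPM in WT TAC (log2 0.35, SE 0.14, adjusted p = 0.184). Within cKO TAC the libraries differed as a block, since replicate 1 was the highest for 26 of the 36 genes and replicate 3 the lowest for 28. WT TAC replicate 1 was highest of its group for 18 and replicate 4 for 16, and replicate 3 was lowest for 20. The median by class was 1.36 for the short-chain pair, 0.92 for fibrillar genes, 0.69 for FACITs, 0.40 for beaded filament genes, 0.35 for type IV, 0.25 for the 2 others, 0.06 for multiplexins and -0.36 for the transmembrane pair, and Col7a1 stood at 0.54.

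**Figure D5:**
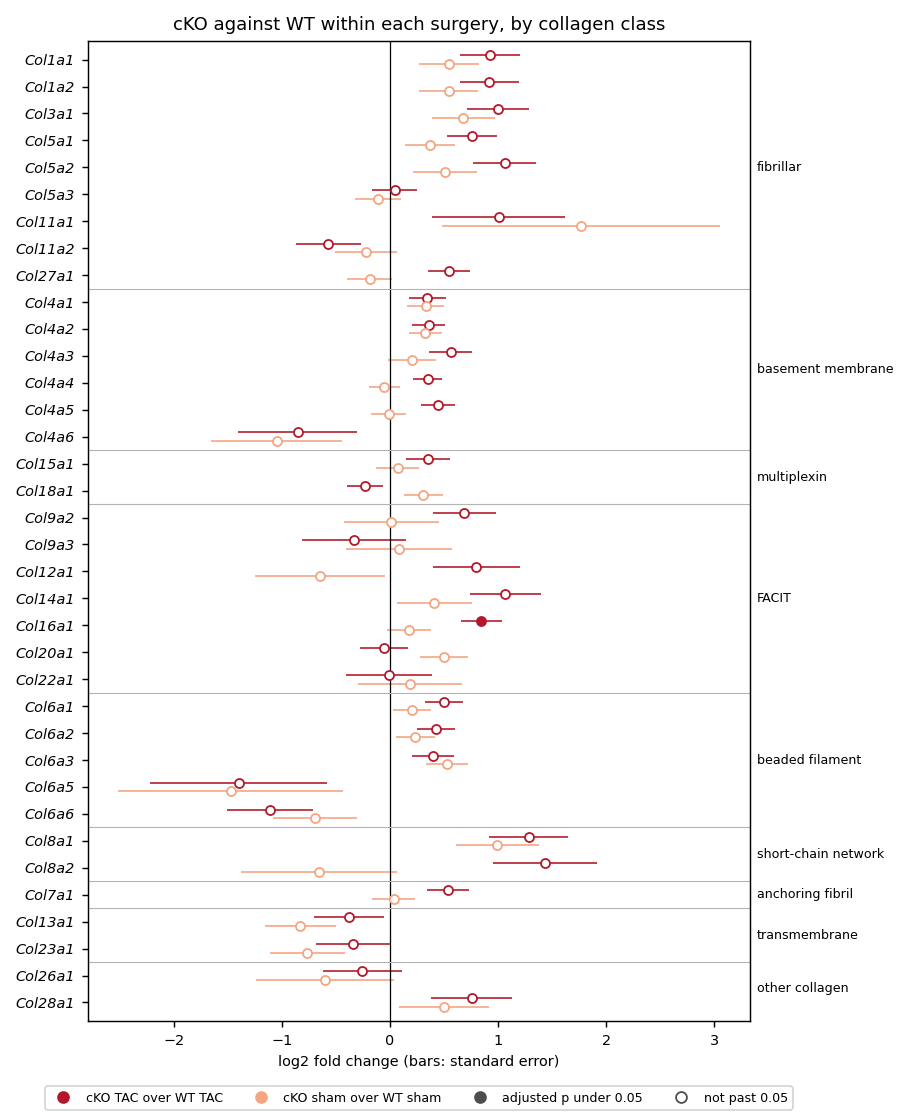
Log2 fold changes of cKO over WT under TAC (red) and under sham (orange) for the 36 tested collagen genes by class, with standard errors; the filled point is Col16a1 under TAC. Most fibrillar, type IV and short-chain genes lie right of 0 under TAC, and Col6a6 lies left of it in both. Col6a5 and Col4a6 also lie left in both, but at 0.50 and 0.25 under TAC without WT TAC replicate 4. Col11a2, Col13a1, Col23a1 and Col26a1 lie left in both as well, and none of them passed.

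Under sham 0 of the 36 passed between cKO and WT by the edgeR test, where 0.618% of all tested genes rose and 0.552% fell. The DESeq2 test gave 0 as well. By an unadjusted p under 0.05, 5 were higher (Col3a1, Col4a2, Col6a3, Col8a1 and Col20a1) and 2 lower (Col13a1 and Col23a1), 7 of 36, where 15% of all tested genes had such a p. The median log2 was 0.18 (all genes -0.01). Col8a1 held 29.5, 69.9, 30.4 and 35.3 CPM in cKO sham, against 11.9, 19.6, 32.1 and 19.3 CPM in WT sham (log2 0.99, SE 0.38, adjusted p = 0.232), and cKO sham replicate 2 was far above its group. Col23a1 held 2.41, 0.971, 1.56 and 2.14 CPM in cKO sham, against 2.98, 3.06, 3.03 and 3.02 CPM in WT sham (log2 -0.77, SE 0.35, adjusted p = 0.301), with every cKO sham library below every WT sham library, as for Col6a6 at 7.3, 4.98, 4.62 and 7.12 CPM in cKO sham, against 10.6, 11.5, 7.54 and 9.36 CPM in WT sham (log2 -0.69, SE 0.38, adjusted p = 0.425). For all tested genes 3.59% separated downwards.

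The interaction asks whether the TAC response differed between the genotypes. No collagen gene and none of the 15206 tested genes passed by edgeR, and 0 collagen genes passed by DESeq2. By an unadjusted p under 0.05, 3 collagen genes had the larger response in cKO and 1 the smaller, 4 of 36, where 4.7% of all tested genes had such a p. Those with the larger response were Col8a2 (log2 2.09, SE 0.87, adjusted p = 0.946), Col27a1 (0.73, SE 0.28, adjusted p = 0.946) and Col16a1 (0.66, SE 0.28, adjusted p = 0.946), and Col18a1 had the smaller one, given above. The difference was positive for 28 of the 36 and negative for 8, with a median of 0.31 (all genes 0.00). For Col1a1 the difference was 0.38, SE 0.39, adjusted p = 0.96 and for Col4a1 0.01, SE 0.24, adjusted p = 0.998, so a difference the size of these errors would not have been detectable.

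Genes that fold, export, bind and break down collagen were followed as lists, to be read against 14.2% of all tested genes that rose and 12.4% that fell in cKO, and 9.7% and 6.14% in WT. Of 19 tested genes of procollagen folding and hydroxylation 13 rose and 1 fell in cKO TAC against cKO sham (median log2 0.48), and 9 rose and 1 fell in WT TAC against WT sham (0.34). P3h3, a prolyl 3-hydroxylase family member, averaged 41.6 ± 8.99 CPM in cKO TAC and 18.9 ± 0.744 CPM in cKO sham (log2 1.14, adjusted p = 5.72e-05), and 31.1 ± 5.9 CPM in WT TAC and 16.9 ± 1.91 CPM in WT sham (0.88, 0.000769). Fkbp10, an isomerase and procollagen chaperone, rose by 0.76 in cKO and 0.40 in WT (adjusted p = 0.000226 and 0.0273). Plod2, the lysyl hydroxylase of the chain ends, rose by 1.07 in cKO (adjusted p = 0.000313) and stood at 0.30 in WT (adjusted p = 0.243). P3h1, the prolyl 3-hydroxylase 1, rose by 0.67 in cKO (adjusted p = 0.000797) and stood at 0.34 in WT (adjusted p = 0.0664). P3h4 was the gene that fell, at -0.34 in cKO (adjusted p = 0.0382) and -0.48 in WT (adjusted p = 0.00979). P4hb, the beta subunit of prolyl 4-hydroxylase and a disulfide isomerase, was the list's gene past the threshold between genotypes under both surgeries, and it was chosen after its values were seen. It averaged 335 ± 20.2 CPM in cKO TAC against 257 ± 29.4 CPM in WT TAC (log2 0.38, adjusted p = 0.0406), and 272 ± 22.9 CPM in cKO sham against 203 ± 8.09 CPM in WT sham (0.42, 0.0271).

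Of 13 tested genes of procollagen export and propeptide removal 5 rose and 1 fell in cKO (median 0.37), and 3 rose and 1 fell in WT (0.16). Adamts2, which cuts off the amino-terminal propeptide, averaged 157 ± 41.6 CPM in cKO TAC and 44.3 ± 12.2 CPM in cKO sham (log2 1.83, adjusted p = 4.37e-05), and 84.2 ± 14.0 CPM in WT TAC and 28.8 ± 5.06 CPM in WT sham (1.55, 0.000208). It was also higher in cKO TAC than in WT TAC (log2 0.90, adjusted p = 0.0354). Bmp1, which cuts off the carboxy-terminal propeptide, rose by 0.76 in cKO and 0.57 in WT, and Pcolce, which speeds that cut, by 0.98 and 1.00 (adjusted p from 4.97e-05 to 0.000756 for these 4 tests). The gene that fell was Tango2, by 0.89 in cKO and 0.57 in WT (adjusted p = 2.14e-05 and 0.00107). It was lower in cKO TAC than in WT TAC (-0.46, adjusted p = 0.0303). Tango2 is named after a secretion screen and is not known to carry procollagen.

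Of 9 tested collagen receptor genes 4 rose in each genotype and none fell (medians 0.48 in cKO and 0.44 in WT). Mrc2, the endocytic receptor that takes up collagen, rose by 1.55 in cKO and 1.23 in WT (adjusted p = 0.000178 and 0.00172). Itga11, the fibroblast integrin chain for fibrillar collagen, rose by 1.76 and 1.24 (0.0023 and 0.0348), and its partner Itgb1 by 0.48 and 0.44 (0.00341 and 0.0106). Itga2, another integrin chain that binds collagen, rose in WT by 1.59 (adjusted p = 0.0263) and stood at 1.10 in cKO (adjusted p = 0.0678). Of 6 tested genes of collagen breakdown 4 rose in cKO and 3 in WT, and none fell (medians 1.18 and 0.77). Mmp14, the membrane collagenase, rose by 1.39 and 0.88, Ctsk, a lysosomal protease that cuts collagen, by 1.25 and 1.26, and Mmp2, a gelatinase, by 1.39 and 1.01 in cKO and in WT, with adjusted p from 5.14e-05 to 0.0143. Fap, a protease of activated fibroblasts, rose by 1.11 in cKO (adjusted p = 0.00156) and stood at 0.66 in WT (adjusted p = 0.0504).

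Markers of the cells that make collagen were read beside these results, and their part in them was not tested. The 10 fibroblast markers summed to 2181 to 2383 CPM in cKO TAC, 2024 to 2751 CPM in cKO sham, 1680.1 to 3627 CPM in WT TAC and 1863 to 2741 CPM in WT sham, with WT TAC replicate 4 the highest. Of them 5 rose and 2 fell (Gsn and Scara5) in cKO and 2 rose in WT (Lum and Tcf21). Gsn made up much of the sum, averaging 793 CPM in cKO TAC, 1373 CPM in cKO sham, 1049 CPM in WT TAC and 1407 CPM in WT sham. The sum therefore says little of the other fibroblast markers. The median log2 fold change over the 10 was 0.47 in cKO and 0.29 in WT. The 10 activated fibroblast markers summed to 1277 to 3138 CPM in cKO TAC, 271 to 455 CPM in cKO sham, 661 to 1204 CPM in WT TAC and 176 to 338 CPM in WT sham, and 9 of them rose in cKO and 7 in WT. Under TAC 1 fibroblast marker (Pdgfra, log2 0.60, adjusted p = 0.0303) passed as higher in cKO than in WT by edgeR. No activated fibroblast marker did, at a median log2 of 1.06 over the 10. Of the cardiomyocyte markers Actn2 passed as lower in cKO TAC than in WT TAC (log2 -0.40, adjusted p = 0.0401). After TAC macrophage markers rose for 7 of 10 in cKO and 6 of 10 in WT. Endothelial markers rose for 2 of 10 in each, and mural markers for 2 of 10 in each with 2 lower in cKO, which is near the share of all tested genes (14.2% rose and 12.4% fell in cKO, and 9.7% and 6.14% in WT). Cardiomyocyte markers fell for 6 of 10 in cKO and 2 of 10 in WT, and their summed level was 36302 to 52347 CPM in cKO TAC, 56269 to 66166 CPM in cKO sham, 48491 to 57942 CPM in WT TAC and 58894 to 67902 CPM in WT sham. The cartilage and valve markers summed to 15.7 to 21.0 CPM in cKO TAC, 6.7 to 14.0 CPM in cKO sham, 17.5 to 59.4 CPM in WT TAC and 13.9 to 26.2 CPM in WT sham. Of the 4 tested cartilage and valve markers 1 rose in cKO (Sox9) and 2 in WT (Sox9 and Acan), and WT TAC replicate 4 was the highest library.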

How the data were processed

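RNA of mouse left ventricle was sequenced in 16 libraries, 4 in each of 4 groups. The authors deposited raw counts per Ensembl gene ID, whole numbers with no normalization. The submitters' processing notes list, with no roles, the build GRCm39 and the tools featureCounts 2.0.6, HISAT2 2.0.5, fastp 0.22.0, SAMtools and FastQC. Strandedness and the handling of reads with several hits are not given in the sources used here, so reads of overlapping genes cannot be told apart. Symbols matched 51880 of 57186 gene IDs through GENCODE M21 (GRCm38), which also gave transcript lengths and coding sequences, and printed coordinates are of GRCm38, not of the counting.

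With edgeR 4.0.16 in R 4.3.3, filterByExpr (minimum 10 counts) left 15206 genes. TMM factors scaled the libraries, and 1 robust quasi-likelihood model of the 4 groups took in all 16 libraries (12 residual degrees of freedom, biological coefficient of variation 16.5%). P-values were adjusted by Benjamini-Hochberg over all tested genes within a comparison, with 0.05 as the threshold. SE was taken from the F statistic. Replicates are biological per the labels. The script was tested on simulated counts with known changes. The members, gene lists and the alternatives were chosen with earlier results of these data known. Values in every library are given for the up to 3 most abundant tested genes of each class, that with the largest mean TAC change, and any gene past the threshold in a genotype comparison or the interaction. Up to 4 genes of each pathway list with the smallest adjusted p are named. Values of further collagen genes were added after they were seen. Alternatives were DESeq2 1.42.0 size factors, library totals, no count filter, the DESeq2 Wald test, a fit of only the 2 groups compared, a block for the replicate number, each library left out, and both WT libraries with the most atrial transcripts left out.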

Additional observations from a re-analysis of the deposited data

Results flagged for a closer look

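Of 92 groups of 4 libraries examined for the named collagen genes, 3 had 1 library far from the other 3. Chance alone would set apart about 1 in 20 such groups. Col3a1 stood at 332 CPM in WT sham replicate 3, where the other WT sham libraries held 214 to 233 CPM. Col4a2 stood at 587 CPM in the same library, where the others held 467 to 480.3 CPM. Col8a1 stood at 69.9 CPM in cKO sham replicate 2, where the other cKO sham libraries held 29.5 to 35.3 CPM. WT sham replicate 3 is the library with the most atrial transcripts (2392 CPM) and was the highest of its group for 21 of the 36 tested collagen genes. cKO sham replicate 2 was the highest of its group for 20, and its summed macrophage markers were 639.6 CPM, against 341 to 463 CPM in the other cKO sham libraries. Its activated fibroblast markers summed to 455 CPM, against 271 to 339 CPM in those libraries. Its fibroblast markers (2751 CPM, against 2024 to 2448 CPM) and endothelial markers (1736 CPM, against 1507 to 1605 CPM) were the highest of its group too. The part of these transcripts in the values was not tested.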

How the results depend on the processing

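The count of collagen genes past the threshold was 24 to 30 over all settings for cKO TAC against cKO sham, and 22 to 26 for WT TAC against WT sham. It was 25 to 28 and 23 to 25 when 1 library was left out, and 30 and 22 without both WT libraries with the most atrial transcripts. It was 0 in every setting for cKO sham against WT sham and for the interaction. For cKO TAC against WT TAC, where 1 passed, it was 0 with no count filter, 0 when only the compared groups were fitted, 8 by the DESeq2 Wald test and 0 to 9 when 1 library was left out. The cause was not tested. Of 51 pairs of a gene and a comparison past the threshold, 6 lost it in at least 1 setting, and 19 pairs not past it passed in at least 1. None of these changed sign. Among pairs past it in no setting, 100 of 2054 values had another sign than the value given, all within 0.61 log2 of 0. Scaling by library totals moved the median log2 of all genes from 0.00 to 0.20 in cKO TAC against cKO sham and from -0.01 to 0.11 in WT TAC against WT sham, and left both counts of risen genes within the ranges above. Libraries with the same replicate number did not deviate together (correlations of their deviations from -0.16 to 0.23), and a replicate block left every count as it was (26, 24, 0, 1 and 0). Depth limits genes with a few counts per library, such as Col6a5, Col9a3, Col11a1 and Col26a1.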
